A study of Mus musculus with 4 samples.

Results

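The genotype difference in re-stimulated Th cells was read from 2 of the 4 arrays of the series. One was titled as Bach2 KO and the other as Bach2 WT, both after 4 h on immobilized anti-TCR-β mAb, and the comparison is every gene's signal on the first against the second. Naive CD4 T cells from the spleen of C57BL/6J mice, recorded as female, were primed for 2 days with anti-TCR-β mAb at 3 µg/ml and anti-CD28 mAb at 1 µg/ml and then kept for 3 more days with IL-2 at 2.5 ng/ml, with no cytokine added to direct a Th subset. Exogenous IL-2 was left out during the 4 h. The Bach2-deficient cells carried floxed *Bach2* alleles on both chromosomes and a CD4-Cre transgene, in which the *Cd4* promoter drives the recombinase, so that deletion begins in developing T cells, before the culture. The labels describe the other cells as Bach2 WT and do not say whether these carried Cre. The remaining 2 arrays, of WT and Bach2-deficient cells before re-stimulation, are quoted beside the results. Each condition had 1 array, so no difference here was tested and no spread between mice or cultures is known. All values describe these libraries.

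Bach2 is a transcription repressor of the BTB and CNC family that pairs with small Maf proteins and binds DNA at sequences that overlap those of AP-1, the factors that TCR signalling switches on. In T cells it is known for holding back effector genes and for keeping naive and memory cells quiescent. A primed Th cell answers a second TCR signal within hours by transcribing the cytokine genes its history has opened, so 4 h of re-stimulation reads out both the resting state and the recall response.

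A gene's signal is the background-corrected intensity of its brightest probe, and a difference is the log2 signal of the Bach2-deficient array minus that of the WT array after each array's 75th percentile (313 on the WT array and 353 on the Bach2-deficient array) was subtracted. Of 18745 named genes, 11282 were well above background on both re-stimulated arrays, 550 on the Bach2-deficient array alone and 513 on the WT array alone, which left 12345 genes to compare. Where 1 side was not well above background, the difference is a bound set against the dimmest signal that was (14.5 on the WT array and 17.2 on the Bach2-deficient array) or against the probe's own signal where that was higher. The signal of *Bach2* itself was 2932 and 2633 on the WT and Bach2-deficient arrays before and 3310 and 3080 after re-stimulation. Its re-stimulated difference was -0.28, and 19.7% of the 11282 genes had a difference as low or lower, so the probe gives no check of the genotype labels, and where it lies relative to the floxed exons was not examined here. Some observations touch every result below. Transcripts of the Y-linked genes *Eif2s3y* (signals 3.18 and 951), *Ddx3y* and *Kdm5d* were well above background on the Bach2-deficient array and not on the WT array. Both samples are recorded as female, while the study's methods state that mice of either sex served for in vitro work. *Xist* was at 5221 and 2585, well above background on both arrays. Sex and genotype therefore cannot be told apart for any gene. The 12 T cell identity genes all lay within 2-fold (median 0.06), with *Cd4* at 114 and 112. Of 14 mast cell and basophil genes with a probe, 3 were detected with WT and 9 with Bach2-deficient cells, with a summed signal of 782 against 2303, while *Ms4a2*, *Mcpt1*, *Mcpt2*, *Mcpt4* and *Tpsb2* were not well above background on either. Of 11 myeloid genes with a probe, 4 could be compared and 3 of them were higher past 2-fold (*Adgre1*, and *S100a9* and *Itgax* as bounds). The brightest of the 4, *Mpeg1*, was at 419 and 347 (-0.45, and 0.29 by a second probe). The brightest probes of *Lyz2*, *Csf1r*, *Itgam*, *Cd14*, *S100a8*, *Cybb* and *Fcgr1* were not well above background on either array (a further probe of *Csf1r* was, with a difference of -0.23). In a bulk sample, fewer cells of a type and less RNA per cell cannot be told apart.

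After re-stimulation, 638 genes (5.17%) were higher and 475 genes (3.85%) lower past 2-fold in the Bach2-deficient cells, 9.02% in either direction. Genes far from equality were mostly on the higher side: 165 were higher and 90 lower past 4-fold, and 27 higher and 3 lower past 16-fold. The 27 include the Y-linked *Eif2s3y* and *Ddx3y* and several close copies from the stefin A and granzyme clusters described below. Of the 638, 436 were measured on both arrays (3.86% of the 11282 genes measured there) and the others were bounds, and of the 475 it was 368 (3.26%), together 7.13%. The median over the 12345 genes was 0.02, and 11 reference genes ranged from -0.23 to 0.37. Different probes of 1 gene spread by a median SD of 0.11 on the log2 difference between the 2 arrays (4018 genes). Within an array, repeated spots of 1 probe spread by 0.05 to 0.06 on the log2 signal. Both are parts of the technical error. Neither includes error shared by all probes of an array, or that between cultures. Another probe was available for 133 of the 638 genes and had the same sign for 128, past 2-fold for 78. For the 475 it was available for 118, with the same sign for 114 and past 2-fold for 63. The 2-fold rule divides a continuum, since *Pign* at 1.0035 and *Nicn1* at -1.0034 lay just inside it and *Cebpd* at 0.9998 and *H2ac4* at -0.9995 just outside.

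**Figure D1:**
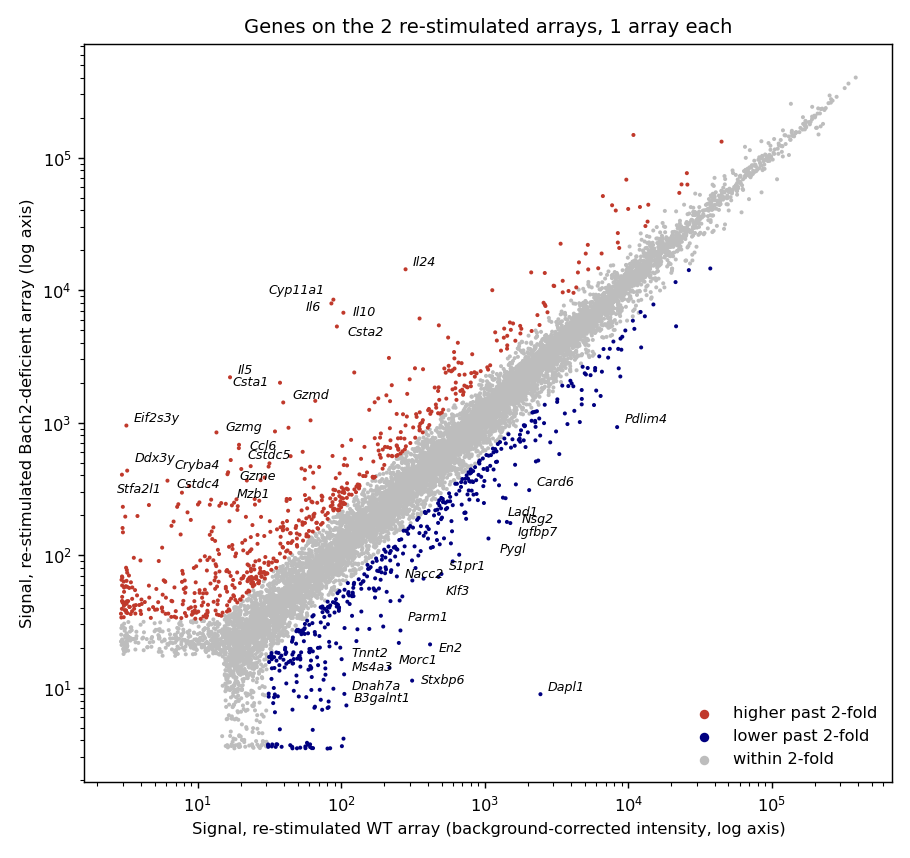
Each point is a gene, plotted by its background-corrected intensity on the re-stimulated WT array (x axis, log scale) and the re-stimulated Bach2-deficient array (y axis, log scale), 1 array each, before scaling; colours mark the 638 genes higher and 475 lower past 2-fold after scaling. The named genes are those with the largest differences in each direction, and most genes lie along the diagonal.

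The largest positive difference belonged to *Il5* (6.86), a Th2 cytokine gene that is left aside here together with *Il4* and *Il13*. Among genes measured on both arrays, the next were *Cyp11a1*, *Il6*, *Il10*, the stefin A genes *Csta2* and *Csta1*, and *Il24*. The bounds of the Y-linked *Eif2s3y* (5.86) and of *Gzmg* (5.69) fell in the same range. *Cyp11a1*, whose product cuts the side chain of cholesterol in the first step of steroid synthesis, gave 88.2 with WT and 8478 with Bach2-deficient cells, an 85.2-fold difference (6.41, and 6.61 by a second probe). It was as far apart before re-stimulation, at 65.7 and 5621. The stefin A genes, a cluster of intracellular inhibitors of cysteine proteases, were all higher: *Csta2* was at 93.3 and 5317 (5.66), *Csta1* at 37.4 and 2001 (5.57) and *Cstdc5* at 19.3 and 642 (4.88), with *Cstdc4* and *Stfa2l1* as bounds of 4.48 and 4.63. Members of this cluster are near-identical in sequence and a probe may read several of them, so they may not be separate observations, although each has its own place in the counts above. *Ccl6*, a CC chemokine, was at 19.4 and 681 (4.96), and *Mzb1*, a chaperone of the endoplasmic reticulum known from plasma cells, at 16.3 and 422 (4.52). *Cryba4*, a lens crystallin gene, was a bound of 4.49.

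Among cytokine and growth factor genes, 12 of the 28 compared were higher past 2-fold and none lower, with a median of 0.52. For this list and those below, the share over all 12345 genes was 5.17% higher and 3.85% lower. The largest differences of the cytokine list were those of *Il6*, *Il10*, *Il24* and *Il21*. *Il6*, a pleiotropic inflammatory cytokine, was at 85.4 on the WT array and 7938 on the Bach2-deficient array, an 82.4-fold difference (6.36). Before re-stimulation its signals were 3.35, not well above background, and 23.0, so nearly all of the Bach2-deficient signal was seen after TCR stimulation. *Il10*, an inhibitory cytokine, was at 104 and 6754 (5.85). It differed before as well, with 9.98, not well above background, against 378. *Il24*, an IL-10 family member expressed by Th2 cells, was at 281 and 14365 (5.50, and 5.49 by a second probe). The IL-21 and IL-22 genes formed a further pair: *Il21*, which acts on B cells and on T cells themselves, was at 23.4 and 469 (4.15), and *Il22*, which acts on epithelia, at 17.3 and 238 (3.61, and 2.05 by a second probe). Neither was well above background on either array before re-stimulation. *Penk*, which encodes the enkephalin precursor, was at 9703 and 68196 (2.64), *Spp1*, osteopontin, at 3380 and 22407 (2.55) and *Csf1*, the macrophage growth factor, at 614 and 3053 (2.14). *Il31*, a Th2 cytokine linked to itch, was at 13803 and 44117 (1.50), and *Osm* at 282 and 663 (1.06, and 0.89 by a second probe). *Il9* and *Il17a* were well above background on the Bach2-deficient array alone, at signals of 102 and 70.2 and bounds of 2.64 and 2.10.

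The other cytokines of the recall response differed by less than 2-fold. The signal of *Ifng*, the Th1 cytokine, was 158625 on the WT array and 167603 on the Bach2-deficient array (-0.09, and 0.32 by a second probe). *Il2* was at 37530 and 33743 (-0.33), *Tnf* at 16622 and 20871 (0.15), *Il3* at 191531 and 241779 (0.16) and *Csf2*, GM-CSF, at 65138 and 120691 (0.72). No spot was saturated on either array.

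**Figure D2:**
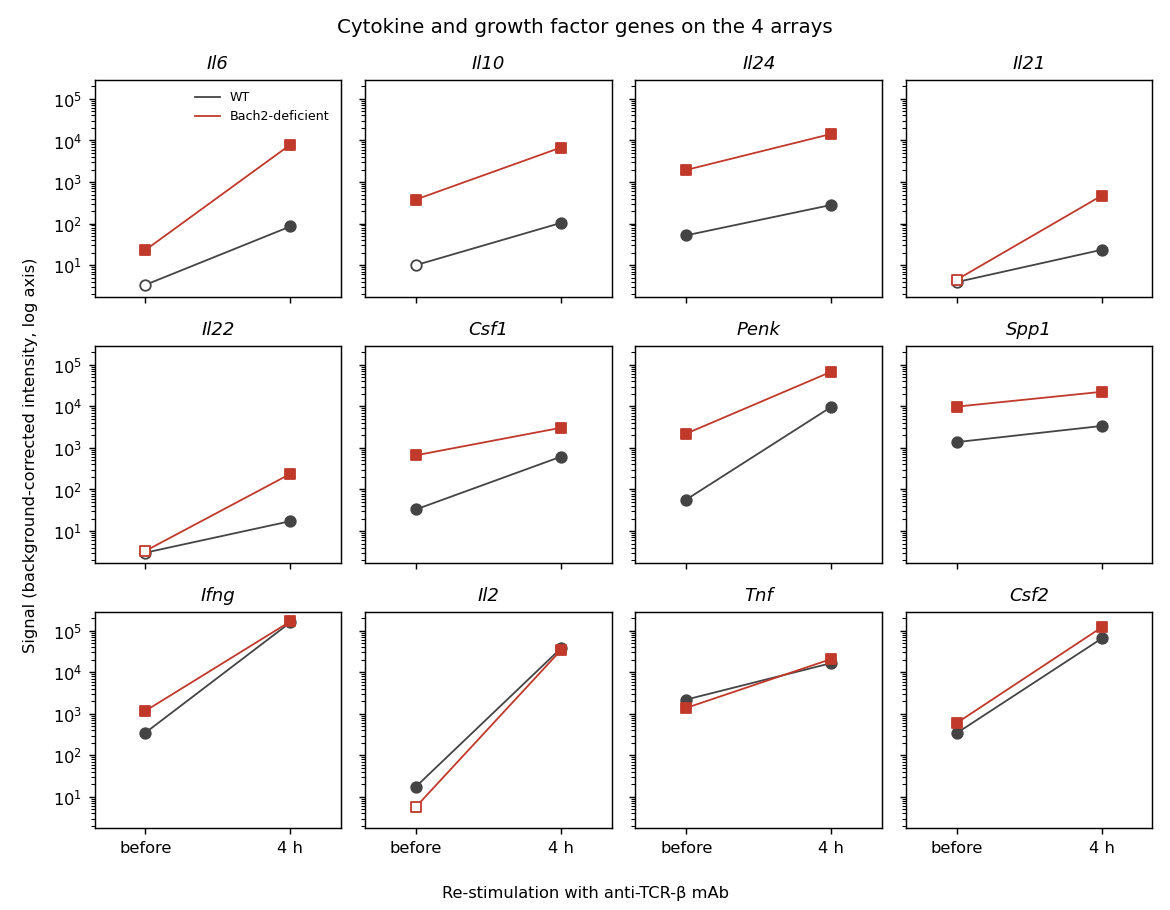
Background-corrected intensity (y axis, log scale) of 12 cytokine and growth factor genes before and after 4 h of re-stimulation on the WT arrays (grey circles) and the Bach2-deficient arrays (red squares), 1 array for each point; open symbols are not well above background. The red points lie above the grey ones after re-stimulation for the 8 genes of the upper panels, whereas *Ifng*, *Il2*, *Tnf* and *Csf2* in the bottom panels differ by less than 2-fold.

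Sequence before the start of the genes was examined because Bach2 is known to bind AP-1 sequences. The letters TGACTCA and TGAGTCA, which are each other's reverse complement and so cover both strands, were looked for in the 250 bases before each annotated start in RefSeq (GRCm38.p6), and a gene was counted if any of its windows held them. Of 9916 compared genes with a window, 415 (4.19%) held the letters. Counted by window and not by gene, 1466 (4.46%) of all 32851 windows held them, those of genes not compared included. The number of windows per gene was not compared between the groups of genes. Of the genes higher past 2-fold, 56 of 500 (11.2%) held them, and past 4-fold 15 of 133 (11.3%), whereas of the genes lower past 2-fold it was 17 of 370 (4.59%). The letters were commoner in genes with CpG-poor windows. Genes whose windows averaged fewer than 3 CpG were taken apart, with a match in any of their windows counted. Of these, 64 of 727 compared genes (8.80%), 19 of 101 higher genes (18.8%) and 4 of 64 lower genes (6.25%) held the letters. The letters of the CRE, the related 8-base sequence with 1 further base at the centre, were in 2.97% of compared, 3.20% of higher and 0.81% of lower genes. The median GC content of the windows was 59.2%, 56.9% and 56.7%. These shares are descriptions; a match is not a binding site, and genes that share a cluster share sequence. The windows of 6 higher genes are shown 5′ to 3′ with the matched letters in capitals. They were picked after the values were seen, as cytokine, protease, receptor and matrix genes that hold 1 match each.
Il6, chr5:30012864-30013113, plus strand: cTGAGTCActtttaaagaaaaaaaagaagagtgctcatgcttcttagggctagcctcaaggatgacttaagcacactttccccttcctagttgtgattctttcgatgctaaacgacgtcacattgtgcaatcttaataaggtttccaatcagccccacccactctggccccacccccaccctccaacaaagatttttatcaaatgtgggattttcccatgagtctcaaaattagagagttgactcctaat
Mmp10, chr9:7502092-7502341, plus strand: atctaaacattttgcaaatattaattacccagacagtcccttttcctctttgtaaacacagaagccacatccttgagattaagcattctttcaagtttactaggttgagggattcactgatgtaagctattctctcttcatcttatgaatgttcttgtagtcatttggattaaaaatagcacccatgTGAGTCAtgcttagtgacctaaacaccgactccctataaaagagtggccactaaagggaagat
Mmp13, chr9:7272264-7272513, plus strand: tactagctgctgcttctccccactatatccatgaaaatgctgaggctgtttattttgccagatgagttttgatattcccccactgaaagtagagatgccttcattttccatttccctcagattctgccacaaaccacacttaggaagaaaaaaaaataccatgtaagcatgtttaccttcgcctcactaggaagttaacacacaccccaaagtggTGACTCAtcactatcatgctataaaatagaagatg
Il9, chr13:56482258-56482507, minus strand: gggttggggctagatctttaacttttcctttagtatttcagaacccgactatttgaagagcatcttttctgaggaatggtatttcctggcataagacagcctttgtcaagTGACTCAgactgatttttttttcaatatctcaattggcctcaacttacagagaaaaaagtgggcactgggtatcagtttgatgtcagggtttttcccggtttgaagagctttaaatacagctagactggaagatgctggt
Ccr3, chr9:124021721-124021970, plus strand: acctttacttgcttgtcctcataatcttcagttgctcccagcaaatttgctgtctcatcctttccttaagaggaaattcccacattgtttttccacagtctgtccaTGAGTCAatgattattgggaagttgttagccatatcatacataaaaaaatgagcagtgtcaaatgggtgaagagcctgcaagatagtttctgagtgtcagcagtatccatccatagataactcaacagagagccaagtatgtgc
Ecm1, chr3:95739570-95739819, minus strand: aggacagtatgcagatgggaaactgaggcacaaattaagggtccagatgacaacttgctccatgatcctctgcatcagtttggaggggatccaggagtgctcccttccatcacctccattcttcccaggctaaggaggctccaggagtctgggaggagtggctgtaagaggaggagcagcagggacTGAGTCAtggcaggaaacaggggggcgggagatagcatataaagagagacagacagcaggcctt
The match began 249 bases before the start in *Il6*, 144 in *Ccr3*, 140 in *Il9*, 64 in *Ecm1*, 63 in *Mmp10* and 35 in *Mmp13*. *Mmp10* and *Mmp13* encode secreted metalloproteases that cut extracellular matrix. Signals of *Mmp10* were 20.1 on the WT array and 447 on the Bach2-deficient array (4.30), and those of *Mmp13* 31.2 and 466 (3.73).

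**Figure D3:**
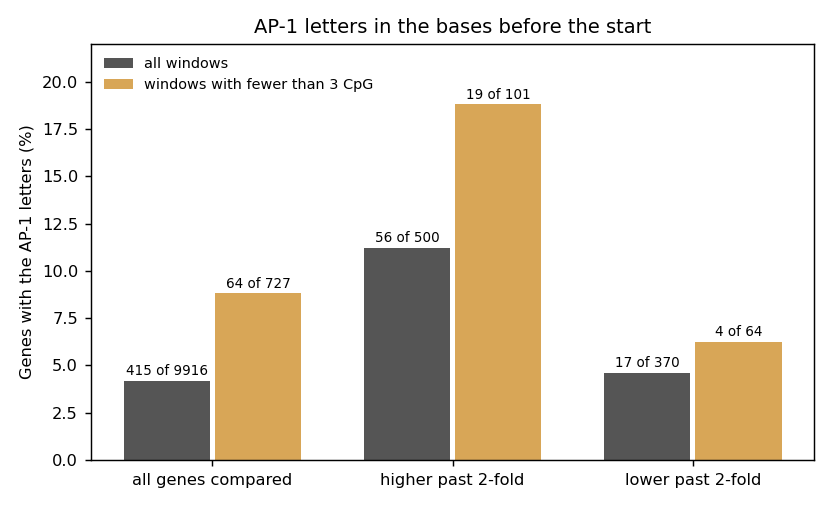
Bars give the percentage of genes that hold the AP-1 letters in the 250 bases before the start, with gene numbers above each bar. Groups are all compared genes, genes higher past 2-fold and genes lower past 2-fold. Dark bars take every gene with a window, and light bars genes whose windows averaged fewer than 3 CpG. The bars of the higher genes stand at 11.2% and 18.8%.

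Of 19 Th2 lineage genes compared, 11 were higher past 2-fold and none lower, with a median of 1.50. Beside *Cyp11a1*, *Il10*, *Il24*, *Il31* and *Il9* these were 3 transcription factor genes, 2 receptor genes and a secreted protein. *Maf*, c-Maf, an activator of *Il4* and *Il10*, was at 123 and 2391 (4.10, and 2.40 by a second probe). *Pparg*, a nuclear receptor of fatty acid ligands, was at 61.1 and 1040 (3.92), and *Epas1*, HIF-2α, a factor of the hypoxia response, at 479 and 5423 (3.33). *Ccr3*, the eotaxin receptor, was at 24.1 and 169 (2.64), *Il1rl1*, the IL-33 receptor ST2, at 629 and 2006 (1.50) and *Ecm1*, an extracellular matrix protein of Th2 cells, at 7722 and 43705 (2.33). *Gata3*, the master factor of the lineage, was at 7569 and 15319 (0.84), short of 2-fold. *Il1rl1* stood 4.71 apart before re-stimulation, and its other probes gave 0.51 to 1.11 after it.

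The other lineages gave a mixed picture. Of 16 Th1 lineage genes, 2 were higher and 2 lower past 2-fold (median -0.09). *Tbx21*, which encodes T-bet, was at 11605 and 10884 (-0.27), *Stat4*, which carries the IL-12 signal, at 2262 and 929 (-1.46), *Il18r1* at 3471 and 1903 (-1.04), and *Hlx*, a homeobox partner of T-bet, was a bound of 3.45. Of 8 Th17 lineage genes, 4 were higher (median 0.86): *Il17a*, *Il22*, the IL-1 receptor gene *Il1r1* (bound 3.82) and *Ahr*, a ligand-activated factor upstream of *Il22* (244 and 665, 1.27). Of 11 Treg genes, 2 were higher (median 0.51), *Itgae* (3.79) and *Izumo1r* (1.02). *Foxp3* itself was at 19.5 on the WT array and not well above background on the Bach2-deficient array. Of 11 Tfh genes, 2 were higher, *Il21* and *Icos*, and 4 lower, *Btla* (586 and 181, -1.87), *Sh2d1a*, the adaptor SAP (1998 and 845, -1.42), *Cd200* (-1.18) and *Tox* (a bound of -1.16), with *Bcl6* at 3232 and 3537 (-0.04).

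Genes of naive and quiescent T cells were lower: 10 of 20 past 2-fold, with 1 higher and a median of -1.09. *Dapl1*, a gene of naive T cells, was the most extreme of all genes on this side, at 2445 on the WT array and 8.93, not well above background, on the Bach2-deficient array, which makes it at least 160.0-fold lower. Before re-stimulation it was at 6231 and 14.8. *S1pr1*, the sphingosine-1-phosphate receptor that lets T cells leave lymph nodes, was at 500 and 72.1 (-2.97), whereas the signals before were 3856 and 2166 (-0.83). *Klf3*, a Krüppel-like repressor, was at 476 and 68.6 (-2.97, and -2.39 by a second probe) and *Igfbp4* at 581 and 123 (-2.42). *Tcf7*, which encodes TCF-1, was at 735 and 209 (-1.99), and its partner *Lef1* at 1896 and 940 (-1.19). The lymph node homing receptor gene *Ccr7* was at 12309 and 3695 (-1.91). *Il7r*, the IL-7 receptor, was the 1 gene of the list higher past 2-fold, at 616 and 2560 (1.88, and 1.51 by a second probe). The probes of *Klf2*, which controls *S1pr1*, disagreed, with 0.00 for the brightest (30785 and 34768) and -3.22 for the other, so its difference is uncertain.

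Of 17 effector differentiation genes, 6 were higher past 2-fold and none lower (median 0.49). *Prdm1*, which encodes Blimp-1 and is a known target of repression by Bach2, was at 171 and 764 (1.98). *Klrg1*, a receptor of terminally differentiated cells, was at 19.0 and 234 (3.45), *Id2*, an inhibitor of E proteins, at 4461 and 13594 (1.43) and *Anxa1* at 535 and 2383 (1.98). *Ccr2*, which directs effector cells to inflamed tissue, was at 219 and 1452 (2.56).

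Of 16 cytotoxic granule genes compared, 8 were higher past 2-fold and none lower (median 0.88), and the 8 were 7 granzyme genes and *Prf1*, which encodes perforin, the pore-forming protein. *Gzmb*, the principal granzyme, was bright on both, at 44735 and 132063 (1.39). *Gzma* was at 6660 and 51284 (2.77), *Gzmc* at 4536 and 16197 (1.66) and *Prf1* at 3020 and 10803 (1.66). The genes of the granzyme D to G group had low or no signal in WT cells: *Gzmd* was at 39.4 and 1420 (31.9-fold), *Gzme* at 17.0 and 522 (4.77), and *Gzmf* and *Gzmg* were bounds of 3.87 and 5.69. These 4 are close copies and their probes may read each other. Other members of the list lay near equality, among them *Nkg7* (0.15), *Fasl* (-0.18), *Srgn* (0.26) and the granzyme inhibitor *Serpinb9* (0.27). Of 7 NK cell genes with a probe 4 could be compared and none was past 2-fold (median -0.34, summed signals 485 and 444), and the CD8 gene *Cd8a* was well above background on the Bach2-deficient array alone, at 14.0 and 63.0 (bound 1.94, and 0.37 by a second probe). Their part in the granule genes was not tested.

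**Figure D4:**
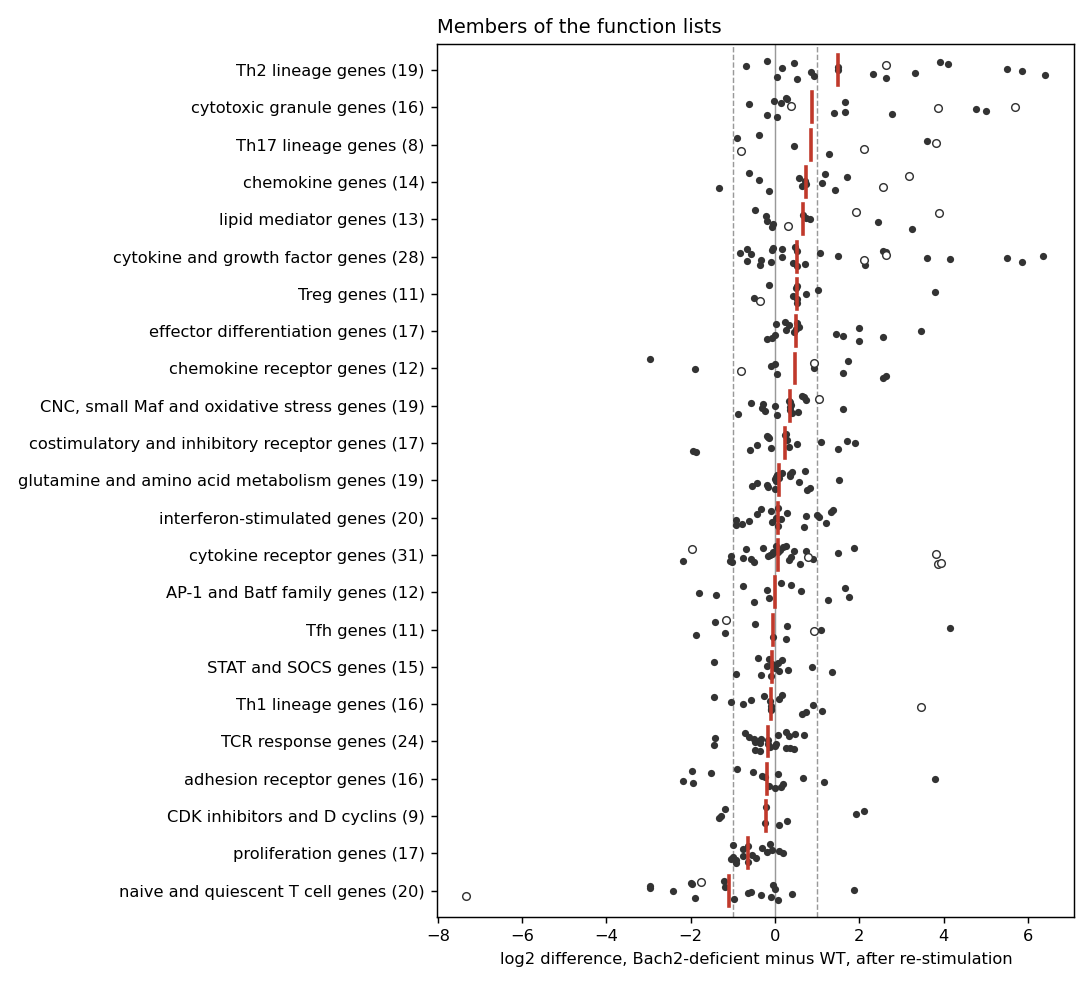
Each row is a list of genes by function with the number compared in parentheses, and each point a member, placed by its log2 difference, Bach2-deficient minus WT, after re-stimulation (x axis); open points are bounds, red bars medians, and dashed lines the 2-fold rule. Th2 lineage genes have the highest median (1.50) and naive and quiescent T cell genes the lowest (-1.09). The lists were chosen with earlier results of these data known, so their order is a description and was not tested.

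Chemokine genes were higher in 6 of 14 and lower in 1 (median 0.72). *Cxcl3* and *Ccl24* were bounds of 3.18 and 2.55, with 1.36 for *Ccl24* by a second probe. *Cxcl2* was at 15.7 and 57.7 (1.70), and *Ccl17*, a CCR4 ligand, at 64.2 and 195 (1.43). *Ccl5* was at 25853 and 62593 (1.10) and the difference of *Cxcl9* was 1.20. *Ccl20*, a CCR6 ligand of Th17 cells, was the lower one, at 76.2 and 34.2 (-1.33). The bright chemokine genes *Ccl3* (39967 and 70342) and *Ccl4* (136088 and 254794) differed by 0.64 and 0.73. Of 12 chemokine receptor genes compared, a list that also held *S1pr1*, 4 were higher, among them *Ccr2*, *Ccr3* and *Cxcr6* (1367 and 5125, 1.73), and 2 lower (*Ccr7* and *S1pr1*).

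Cytokine receptor genes were split, 5 of 31 higher and 5 lower past 2-fold (median 0.06). On the lower side 3 of the 5 encode chains of interferon receptors. *Ifngr1*, the ligand-binding chain of the IFN-γ receptor, was at 21562 on the WT array and 5336 on the Bach2-deficient array, 4.56-fold lower (-2.19). Before re-stimulation it was at 52070 and 40942 (-0.34), so that most of the difference was seen after re-stimulation. *Ifngr2*, the second chain, was at 748 and 401 (-1.08, and -1.10 by a second probe), and *Ifnar2*, of the type I receptor, at 1028 and 570 (-1.02, and -0.40 by a second probe). *Il6ra* was a bound of -1.96 and *Il18r1* is given above. On the higher side, beside *Il7r*, *Il1rl1* and *Il1r1*, were *Csf2rb* and *Csf2rb2*, which encode the shared signalling chain of the IL-3, IL-5 and GM-CSF receptors and its close copy, at bounds of 3.87 and 3.93. The other probes of *Csf2rb* gave -0.87 to -0.13, so its difference is uncertain.

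Interferon-stimulated genes, which report interferon signalling, stood differently in the 2 states. Before re-stimulation 15 of 20 were higher past 2-fold in the Bach2-deficient cells (median 1.90, beside 5.26% of 12133 genes). After it 4 of the 20 were (median 0.07): *Rsad2* (623 and 1819, 1.37), *Oasl1* (1.32), *Ifi44* (1.20) and *Isg15* (13182 and 30454, 1.03). *Ifit3* was at 192 and 1241 before and at 3400 and 2027 after re-stimulation (2.70 and -0.92), and *Gbp2*, an IFN-γ-induced GTPase, at 2828 and 8901 before and at 28025 and 16753 after (1.66 and -0.92). The signals of these 6 genes were higher after re-stimulation than before in both genotypes, by the larger factor in WT cells. Whether the difference between the states exceeds the spread between cultures could not be tested with 1 array each.

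**Figure D5:**
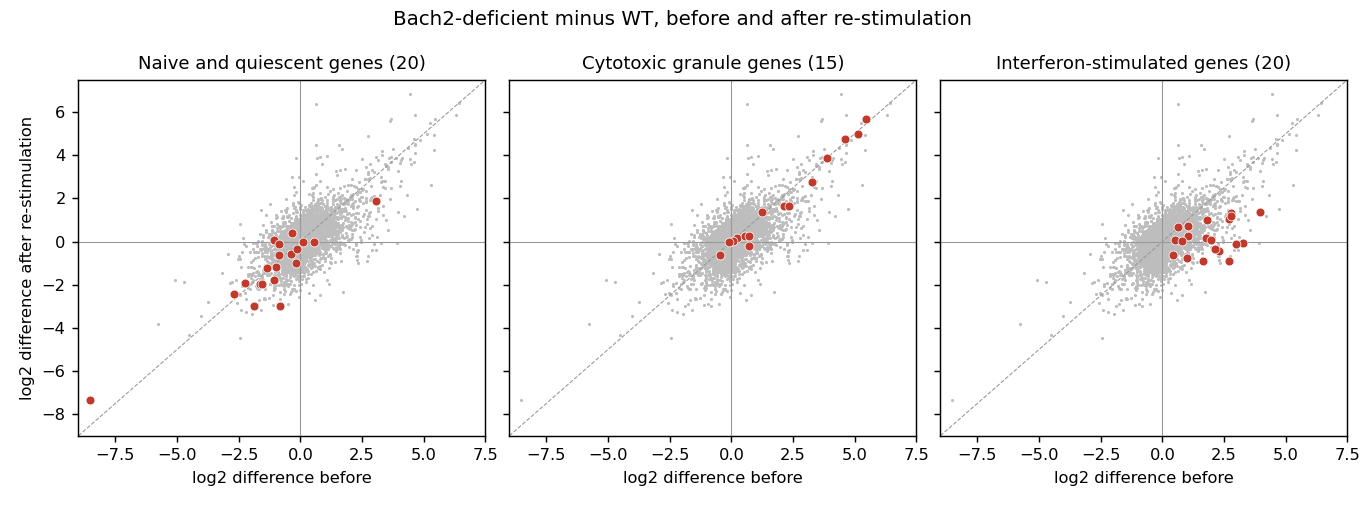
Each grey point is a gene with a value in both states, placed by its log2 difference, Bach2-deficient minus WT, before (x axis) and after re-stimulation (y axis); red points are members of the naive and quiescent, cytotoxic granule and interferon-stimulated lists, and the dashed line marks equal differences. The granule genes lie near the dashed line, whereas 15 of 20 interferon-stimulated genes lie beyond 1 on the x axis and 4 beyond 1 on the y axis.

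Costimulatory and inhibitory receptor genes were higher in 4 of 17 and lower in 2 (median 0.24). *Havcr2*, which encodes TIM-3, was at 5230 and 21961 (1.90, and 1.81 by a second probe), *Lag3* at 473 and 1734 (1.70), *Cd244a* at 724 and 2305 (1.50, with 0.95 to 1.24 by other probes) and *Icos* at 8658 and 20809 (1.09). *Pdcd1*, PD-1, was at 9569 and 13132 (0.28) and *Ctla4* at 210 and 338 (0.51), both short of 2-fold. *Cd160* and *Btla*, which bind the same ligand, HVEM, were the lower 2. *Cd160* was at 4212 and 1228 (-1.95), the reverse of the state before re-stimulation, when it was at 40.7 and 89.4 (1.14).

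The AP-1 and Batf family, whose members bind as dimers at the sequences that Bach2 also recognises, was split by member. Of 12 genes 3 were higher and 2 lower (median 0.00). *Batf3* was at 1498 and 5701 (1.75), *Jdp2*, a repressor of AP-1, at 88.2 and 312 (1.65) and *Batf* at 8465 and 22868 (1.26). *Batf* had differed by 0.49 before, at 6933 and 9715. The immediate early genes *Fosb* (458 and 148, -1.81) and *Fos* (830 and 356, -1.39) were lower. *Junb* (0.37), *Jund* (0.15) and *Jun* (-0.75) stayed within 2-fold, as did *Irf4*, the partner of Batf, at 2746 and 2433 (-0.35).

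TCR response genes as a list were near equality, 0 of 24 higher and 2 lower (median -0.16), against a median of 0.31 before re-stimulation. The 2 were *Egr3* (238 and 97.6, -1.46) and *Nr4a2* (8515 and 3604, -1.41). *Nr4a1*, Nur77, was at 131898 and 104661 (-0.51), *Egr2* at 36131 and 40631 and *Cd69* at 3566 and 2902 (-0.47). Of 15 STAT and SOCS genes 1 was higher, *Socs3*, a feedback inhibitor of IL-6 family signalling (2650 and 7593, 1.34), and 1 lower, *Stat4* (median -0.08). That is 6.67% each way, near the shares of all compared genes (5.17% higher and 3.85% lower). *Stat3* differed by 0.07.

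Genes of lipid mediators were higher in 4 of 13 and lower in none (median 0.67). *Alox5*, the 5-lipoxygenase that starts leukotriene synthesis, was at 24.9 and 265 (3.24, with 1.71 to 2.93 by other probes). *Ltb4r1*, the receptor for leukotriene B4, was at 650 and 4006 (2.45). The cyclooxygenase genes *Ptgs1* and *Ptgs2* were well above background on the Bach2-deficient array alone, with bounds of 3.89 and 1.93, but a second probe of *Ptgs2* gave 0.23, so its difference is uncertain. The remaining leukotriene genes, *Alox5ap* at 506 and 539 (-0.08) and *Lta4h* at 489 and 534 (-0.05), lay near equality. *Alox5* and *Ptgs1* are also expressed by mast cells and basophils, whose genes *Mcpt8* (8.73 and 333), *Prss34* (15.7 and 244), *Cpa3* (3.12 and 195) and *Cma1* (6.56 and 166, with a difference of 1.43 by a second probe) were well above background on the Bach2-deficient array alone. Of the 9 genes of that list compared, 6 were higher past 2-fold and 1, *Slc18a2*, a transporter of monoamines, was lower (286 and 152, -1.09, and -1.05 by a second probe), while *Cd200r3* differed by 0.34. The genes *Il6*, *Il10* and *Csf1* are known from myeloid and mast cells too. The cultures began from naive CD4 T cells prepared with an isolation kit. The part of mast cells, basophils and myeloid cells in these results was not tested.

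Of 16 adhesion receptor genes 2 were higher and 4 lower (median -0.18). *Itgae*, CD103, which binds E-cadherin on epithelia, was at 31.6 and 493 (3.79), and *Itga5* at 35.7 and 90.1 (1.16). *Itga6* was at 486 and 121 (-2.18), *Itga4* at 119 and 34.8 (-1.94, and -0.46 by a second probe) and *Itgb3* at 8960 and 3552 (-1.51). Before re-stimulation *Itgb3* was at 15209 and 20410 (0.43).

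Proliferation genes leaned to the lower side, 15 of 17 below 0 and 2 past 2-fold, the cyclin genes *Ccna2* (4813 and 2641, -1.04) and *Ccnb2* (12198 and 6845, -1.01), with a list median of -0.64. *Top2a* was at 1456 and 827 (-0.99) and *Mki67* at 15683 and 10493 (-0.75), whereas genes of replication licensing such as *Mcm2* (0.19) and *Mcm5* (0.10) were near equality. Of 9 genes of CDK inhibitors and D cyclins, the INK4 genes *Cdkn2b* (523 and 2563, 2.12) and *Cdkn2a* (269 and 1157, 1.93), which are known from senescence, were higher, and *Cdkn1b*, p27 (443 and 200, -1.33), *Cdkn1c* (-1.28) and *Cdkn2c* (-1.18) were lower. The signals of the 4 cyclin and marker genes named here were lower after re-stimulation than before on both genotypes.

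Genes of the CNC and oxidative stress group, to which Bach2 is related, were higher in 2 of 19 and lower in none (median 0.36). *Hmox1*, heme oxygenase-1 and a classical target of the relative Bach1, was at 1215 and 4166 (1.60), and *Slc7a11*, the cystine transporter, was a bound of 1.05 (0.43 by a second probe). *Bach1* itself was at 460 and 538 (0.05) and *Nfe2l2*, which encodes Nrf2, at 1753 and 1625 (-0.28). In glutamine and amino acid metabolism, 1 of 19 genes was higher, *Gpt2*, mitochondrial alanine aminotransferase, at 195 and 627 (1.51). That is 5.26%, near the 5.17% of all compared genes. *Gfpt1* was at 1126 and 2243 (0.82), short of 2-fold by its brightest probe, with 1.11 to 1.27 by other probes. The glutamine transporter *Slc1a5* was at 22450 and 26344 (0.06). Their median was 0.09.

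Apart from naive T cell genes, the largest differences on the lower side were in genes of varied function. *En2*, a homeobox gene, was at 416 and 21.2 (-4.47). *Pdlim4*, an actin-associated PDZ and LIM protein, was at 8372 and 926 (-3.35), and *Pygl*, glycogen phosphorylase, at 1062 and 134 (-3.16). Both had differed before re-stimulation, at 21537 and 5481 and at 6650 and 1243. *Nsg2* (1508 and 175, -3.28), *Parm1* (259 and 27.0, -3.43) and *Nacc2*, a BTB-domain repressor (598 and 89.7, -2.91), also had a negative difference before, of -2.22, -4.04 and -0.94. *Igfbp7* was at 1428 and 178 (-3.18). *Tnnt2*, cardiac troponin T (252 and 21.8, -3.71), and *Lad1*, ladinin (1258 and 179, -2.98), were not well above background on either array before, and *Card6* was at 2041 and 310 after (-2.89) and 3941 and 2736 before (-0.52). *Stxbp6*, *Morc1*, *B3galnt1*, *Dnah7a* and *Ms4a3* were above background in WT cells alone, with bounds of -4.35, -3.83, -2.83, -2.78 and -2.78.

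The higher genes included both genes that were already higher before re-stimulation and genes that were then within 2-fold. Among the 10807 genes that all 4 arrays measured above background, 363 were higher after re-stimulation, of which 183 were higher past 2-fold before as well, 178 within 2-fold and 2 lower. Of 322 lower genes, 92 were lower before, 229 within 2-fold and 1 higher. Most had a difference of the same sign before, 330 of the 363 and 268 of the 322. Their median differences before were 1.01 and -0.54, so being within 2-fold before does not mean equality. The state before was measured on its own pair of arrays, in which 638 of 12133 genes (5.26%) were higher and 341 (2.81%) lower, 8.07% in either direction. *Cyp11a1*, *Gzmd*, *Itgae* and *Klrg1* had about the same difference in both states, whereas *Il6*, *Il21*, *Batf*, *Socs3* and *Gpt2* on the higher side and *S1pr1*, *Ifngr1*, *Card6* and *Stat4* on the lower side had a difference past 2-fold after re-stimulation and within it, or no measured value, before. These counts have no test, since each state had 1 array a side.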

How the data were processed

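RNA of 4 samples was hybridised to Agilent whole mouse genome arrays with 1 colour, on 1 slide and in 1 scan, 1 array for each condition, and the 2 re-stimulated arrays were compared. All samples were grouped by their labels. The labels give IL-2 at 2.5 ng/ml, and the study's methods give another concentration.

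The authors deposited for each array a background-subtracted intensity per spot from Agilent Feature Extraction (10.7 per the labels, 10.7.3.1 per the file headers), with flags for spots well above background, saturated or uneven. A log2 value for each probe was deposited too. It matched the log2 intensity less the array's 75th percentile to within 0.01 for at least 41001 of 41173 probes and served as an alternative.

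Spots of a probe were averaged after up to 120 spots marked as outliers or uneven were left out on each array, log2 was taken, and the 75th percentile over non-control probes was subtracted. Probes well above background on at least 1 of the 2 arrays were kept. No spot was saturated, and 53.6% to 54.0% of probes were well above background on each array. Of the probes, 27471 (66.7%) were named through their transcript in RefSeq (GRCm38.p6), giving 18745 genes, and the brightest probe stood for a gene. With 1 array a side no test was made: 2-fold is a rule of size, and precision is limited by the number of arrays. The members and the 32 gene lists were chosen with earlier results of these data known. Genes were named by a rule: *Bach2*, the 12 largest differences each way, the 6 largest bounds each way, the 4 largest of each list, sex-linked genes and undetected markers. Further list members, *Mmp10* and *Mmp13* were named after their values were seen. The AP-1 letters and CRE were counted in RefSeq promoter windows, also after the values were seen. Alternatives changed the scaling, background correction, source table, choice of probe, filter, floor, left-out spots and fold rule. The procedure was checked on simulated data. Python 3.11.15, numpy 2.4.6, pandas 2.3.3, matplotlib 3.10.9, R 4.3.3 and limma 3.58.1 were used, the last for normexp and quantile normalization. The study's ChIP libraries were not used here. A few list members that enter the counts are not reported here by name.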

Additional observations from a re-analysis of the deposited data

Results flagged for a closer look

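*Cd160*, which encodes an inhibitory receptor, differed in opposite directions in the 2 states. The log2 difference, Bach2-deficient minus WT, was 1.14 before and -1.95 after re-stimulation, from signals of 40.7 and 89.4 before and 4212 and 1228 after. With 1 array for each condition, this reversal was not tested.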

How the results depend on the processing

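No named gene past 2-fold changed sign under the 10 alternatives that kept the 2-fold rule, and neither did any list median past it. Of 296 recomputed list medians 30 moved by more than the spread between probes of a gene, and of 1346 recomputed values of 138 named genes 172 did. The cause of these moves was not tested unless it follows from the alternative itself. The count of genes past 2-fold (638 higher and 475 lower) depended on the treatment of dim probes. Normexp correction started from the median signal and background of each spot and added an offset of 50 to every intensity. After it and quantile normalization, the count was 287 and 217. With no filter and no floor it was 1437 and 1023, and at a 3-fold rule 275 and 170. With the 2-fold rule kept, genes on the higher side made up 54.2% to 58.4% of those past it (57.3% as reported).

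With normexp and quantile normalization the median was 1.19 for Th2 lineage, 0.60 for Th17 lineage, 0.40 for Treg, -0.82 for naive and quiescent, 0.15 for chemokine receptor and 0.43 for lipid mediator genes. With probes well above background on both arrays, which leaves out bounds, it was 0.44 for Th17 lineage, -0.81 for naive and quiescent, 0.27 for cytotoxic granule and 0.31 for lipid mediator genes. With no filter and no floor it was 0.32 for Th17 lineage, 1.10 for cytotoxic granule, 0.086 for chemokine receptor and -0.0033 for adhesion receptor genes, and with the filter alone 1.24 for cytotoxic granule genes. With the mean over a gene's probes it was 0.11 for costimulatory and inhibitory receptor, 0.049 for STAT and SOCS (from -0.08), 0.31 for lipid mediator and -0.064 for adhesion receptor genes. No replicate could be left out, and differences of genes near background are limited by the signal over it. No paired analysis was possible because each group held 1 array.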
